A study of Phaseolus vulgaris with 12 samples.

Results

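Genes of 5 plant transcription factor families were followed across drought and seed coating in leaves of dwarf bean (*Phaseolus vulgaris*): a NAC gene (PHAVU_011G147800g), an AP2/ERF gene (PHAVU_007G082000g), a heat shock factor gene (PHAVU_002G019100g), a WRKY gene (PHAVU_001G042100g) and a CONSTANS-like gene (PHAVU_004G157300g). The identifiers were fixed by a list of 5 genes that the study names for drought-stressed 6PP plants, out of 27996 genes in the files. All 5 were present in the files, and all 5 were among the 22398 genes that passed the filter on low counts. They were chosen by the study on their difference in expression between 6PP and polymer under drought in these samples, so that difference is given below as a description without a test. Family names are those the study gives.

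6PP (6-pentyl-α-pyrone) is a volatile compound made by *Trichoderma* fungi, and it was applied here to the seed in a carrier polymer at 114 mM. The 4 groups were drought-stressed plants from 6PP-coated seeds, drought-stressed plants from seeds coated with the polymer alone, well-watered plants from 6PP-coated seeds and well-watered plants from polymer-coated seeds. All plants were of the dwarf cultivar Messi and all seeds carried the polymer. Drought meant about 16 days without irrigation. RNA was taken from trifoliate leaves, which were collected when drought-stressed plants were at wilting stage 3. The study had 3 replicates per group, each a pool of 5 plants, so p-values measure the spread between pools.

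The 10 libraries used held between 39974999 and 55648172 reads on genes. They comprised 3 libraries in each group except the drought 6PP group, where only 1 could be used. This library was labelled replicate 3, and the same table recurs cell for cell in the file of replicate 2. The share of intron reads was 7.997% in this library and between 4.97% and 6.35% in the other 9. Plants were grown in 2 chambers, each with trays of both coatings by the study's account, and the labels do not assign samples to chambers. Whether chamber went with watering is not stated, so effects of chamber and of watering cannot be told apart. All 7 of 7 leaf marker genes (6 chlorophyll-binding protein genes and a Rubisco activase-like gene) were above 0 TPM in every library, and their summed level was 821 TPM in the drought 6PP library, 1753 to 2926 TPM in the drought polymer libraries, 16868 to 20181 TPM in the well-watered 6PP libraries and 17518 to 18537 TPM in the well-watered polymer libraries. The 7 markers did not all share the order of the drought libraries: with 6PP the 6 chlorophyll-binding protein genes lay below every drought polymer library, and the Rubisco activase-like gene PHAVU_001G234300g was higher, at 286 TPM against 108 to 132 TPM. In bulk leaf tissue, fewer cells of a type and less RNA per cell cannot be told apart, and the part that the lower leaf markers under drought had in the results below was not tested.

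NAC proteins are plant-specific regulators with roles in development, senescence and responses to water deficit, and AP2/ERF proteins include ethylene response factors and the DREB proteins that act in dehydration and cold. Heat shock factors switch on chaperone genes when proteins are damaged by heat or other stress. WRKY proteins are best known from defence and senescence, and CONSTANS-like proteins are zinc finger proteins named after CONSTANS, which controls flowering by day length in *Arabidopsis*.

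Drought was compared with well-watered conditions in plants from polymer-coated seeds, to ask how the 5 genes stood under water deficit without 6PP. The AP2/ERF gene and the heat shock factor gene rose, by 96.1-fold and 12.1-fold. The NAC gene was 23.6-fold higher and the CONSTANS-like gene was lower at a log2 fold change of -1.11, but neither met the strictest of the 3 criteria. The WRKY gene did not pass any test. A gene was called when its log2 fold change was at least 0.6 in size, its false discovery rate (FDR) at most 0.01 and its Bonferroni-adjusted p at most 0.05, all from edgeR's quasi-likelihood test over 22398 genes. By these criteria 2 of the 5 genes were called, both higher, where the background over all tested genes was 12.6% called in either direction, 5.32% higher and 7.31% lower. By fold and FDR alone 4 of the 5 passed, 3 higher and 1 lower, against a background of 36.2% in either direction, 15.7% higher and 20.5% lower. In 4 of the 5 the libraries of the groups did not overlap, 3 with drought above and 1 with drought below, and of all tested genes this held for 65.9%, with 33.4% above and 32.5% below. The median log2 fold change was 3.59 over the 5 genes, whose values ran from -1.11 to 6.59, and -0.01 over all tested genes. The drought polymer libraries also served in the comparison on which the study chose the genes. These counts and medians are therefore descriptions and no test of the 5 genes as a set.

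**Figure D1:**
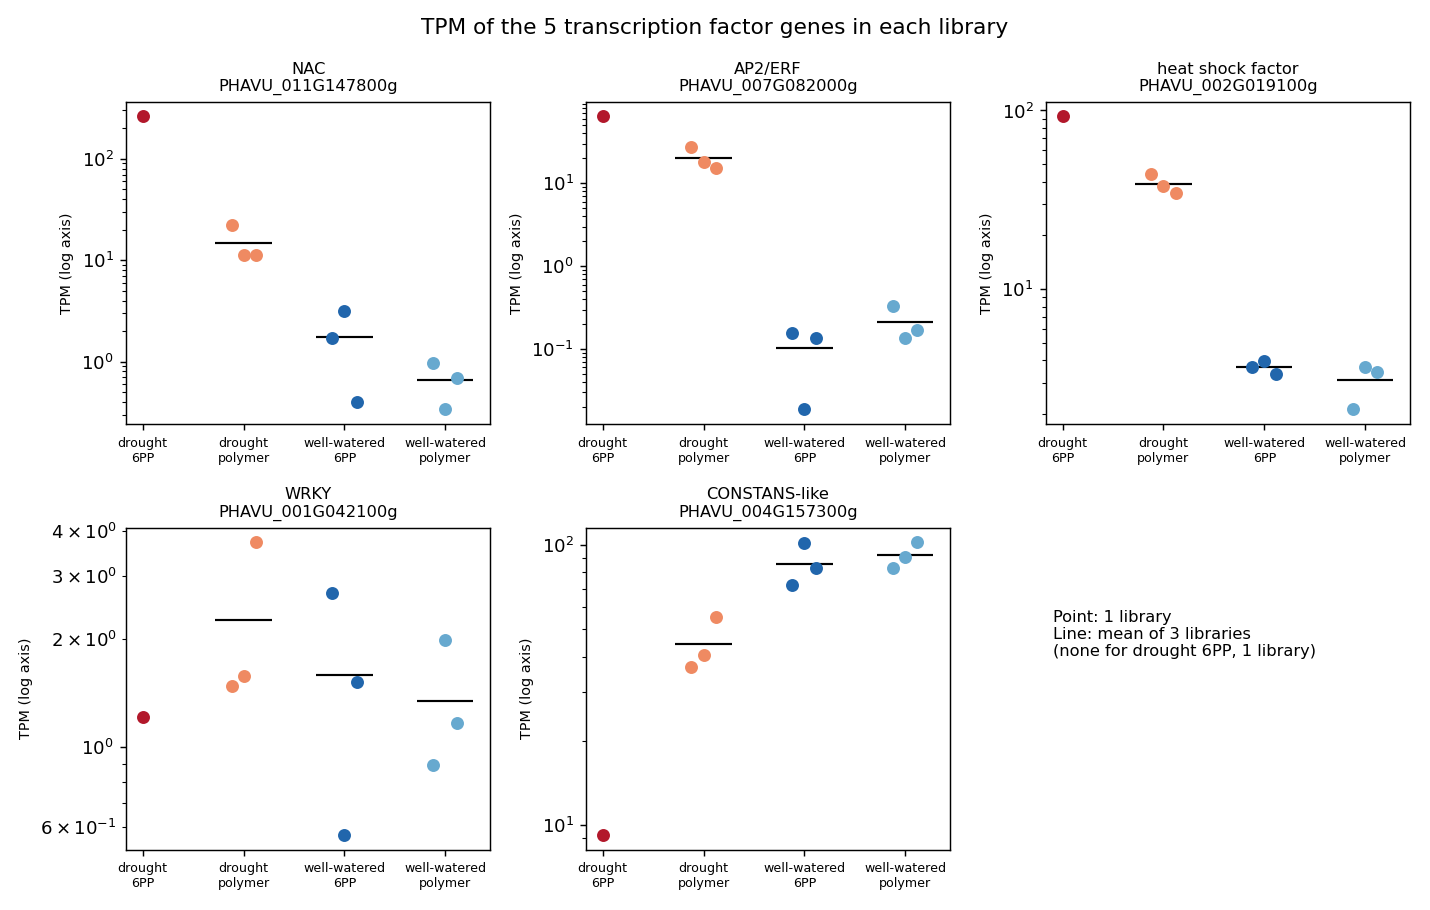
Level of each of the 5 genes in TPM (log axis) in the 10 libraries, by group, with the mean of 3 libraries as a line where a group has 3. The NAC, AP2/ERF and heat shock factor genes are highest and the CONSTANS-like gene is lowest in the drought 6PP library, and the WRKY gene overlaps between the groups of 3.

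The AP2/ERF gene PHAVU_007G082000g lies on chromosome 7 from 8065792 to 8067856 on the plus strand, and the files list it with 1 exon. Its level in TPM (transcript abundance, from exon reads scaled for exon length and library total) was 27.1, 18.2 and 15.5 in drought polymer plants and 0.332, 0.136 and 0.172 in well-watered polymer plants. These levels rested on 1581, 1006 and 825 reads in drought polymer plants and on 18, 10 and 10 reads in well-watered polymer plants. The lowest drought library stood far above the highest well-watered one, and of the 5 genes this one had the lowest level in well-watered leaves. Its log2 fold change was 6.59 ± 0.37 (SE), with a 95% interval of 5.77 to 7.40 (edgeR FDR = 9.35e-08, Bonferroni-adjusted p = 4.75e-05). It ranked 99 from the highest among the log2 fold changes of 22398 tested genes. Because the well-watered libraries hold few reads, the size of this fold depends on how low counts are treated, and on the scale of log2(TPM + 1) the difference was 4.10. When every library was required to hold at least 10 reads the gene was not tested.

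The heat shock factor gene PHAVU_002G019100g, with 2 exons on chromosome 2 from 2097022 to 2099089, plus strand, had the narrowest spread between replicates of the 5 under drought, relative to its mean. It measured 44.3, 37.8 and 34.3 TPM in drought polymer plants, against 2.13, 3.67 and 3.45 TPM in well-watered polymer plants. The means were 38.8 ± 5.03 TPM under drought and 3.08 ± 0.837 TPM under watering (SD, n = 3 each), and the groups did not overlap. This gave a log2 fold change of 3.59 ± 0.19 (SE), with a 95% interval of 3.17 to 4.02 (edgeR FDR = 3.70e-08, Bonferroni-adjusted p = 1.24e-05). It was called in each run that left out 1 library, at log2 fold changes of 3.36 to 3.72.

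The NAC gene PHAVU_011G147800g has 3 exons on chromosome 11 from 38427431 to 38429252, plus strand. It measured 22.3, 11.3 and 11.2 TPM in drought polymer plants (971, 470 and 446 reads), against 0.970, 0.338 and 0.690 TPM in well-watered polymer plants (38, 18 and 29 reads). Replicate 1 of the drought plants stood at about the sum of the other two, and all 3 stood above every well-watered library. The log2 fold change of 4.56 was larger than that of the heat shock factor gene but its error was wider, at 0.66 (SE), with a 95% interval of 3.03 to 6.08. Its FDR of 0.000515 (edgeR quasi-likelihood test) was below the limit, and its Bonferroni p of 1 was not. The call depended on the fit: with only the 6 libraries of these groups the NAC gene was called (log2 fold change 4.52, edgeR FDR = 2.14e-05), and DESeq2 called it too (4.49). Leaving out single libraries gave 4.18 to 4.92 and no call.

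The CONSTANS-like gene PHAVU_004G157300g, with 2 exons on chromosome 4 from 43946612 to 43950275, minus strand, was the most abundant of the 5 in well-watered leaves. It measured 36.8, 40.5 and 55.4 TPM in drought polymer plants and 83.0, 91.0 and 102 TPM in well-watered polymer plants. Each drought library was below each well-watered library. The log2 fold change was -1.11 ± 0.16 (SE), with a 95% interval of -1.47 to -0.76 (edgeR FDR = 0.000119), and the Bonferroni p of 0.514 left it uncalled. DESeq2 called it at -1.14. It ranked 4723 from the lowest of 22398 tested genes.

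The same gene carried many intron reads. They were 23.1%, 25.0% and 22.1% of its reads in the drought polymer libraries and 26.0%, 26.2% and 24.04% in the well-watered polymer libraries. These shares overlapped between the groups. The NAC gene had 3.71%, 3.62% and 3.14% intron reads in drought polymer libraries and 0% in each well-watered polymer library, where it had at most 38 reads in all.

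The WRKY gene PHAVU_001G042100g, with 7 exons on chromosome 1 from 4312182 to 4314073, minus strand, was scarce in every group. It measured 1.48, 1.58 and 3.73 TPM in drought polymer plants (60, 51 and 138 reads), against 0.890, 1.99 and 1.17 TPM in well-watered polymer plants (27, 89 and 39 reads). Only replicate 3 of the drought plants lay above all well-watered libraries, and the groups overlapped. Its log2 fold change was 0.91 ± 0.60 (SE), with a 95% interval of -0.40 to 2.22 (edgeR FDR = 0.216). Without drought polymer replicate 3 it was 0.28, and at this depth and spread no difference was detectable.

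**Figure D2:**
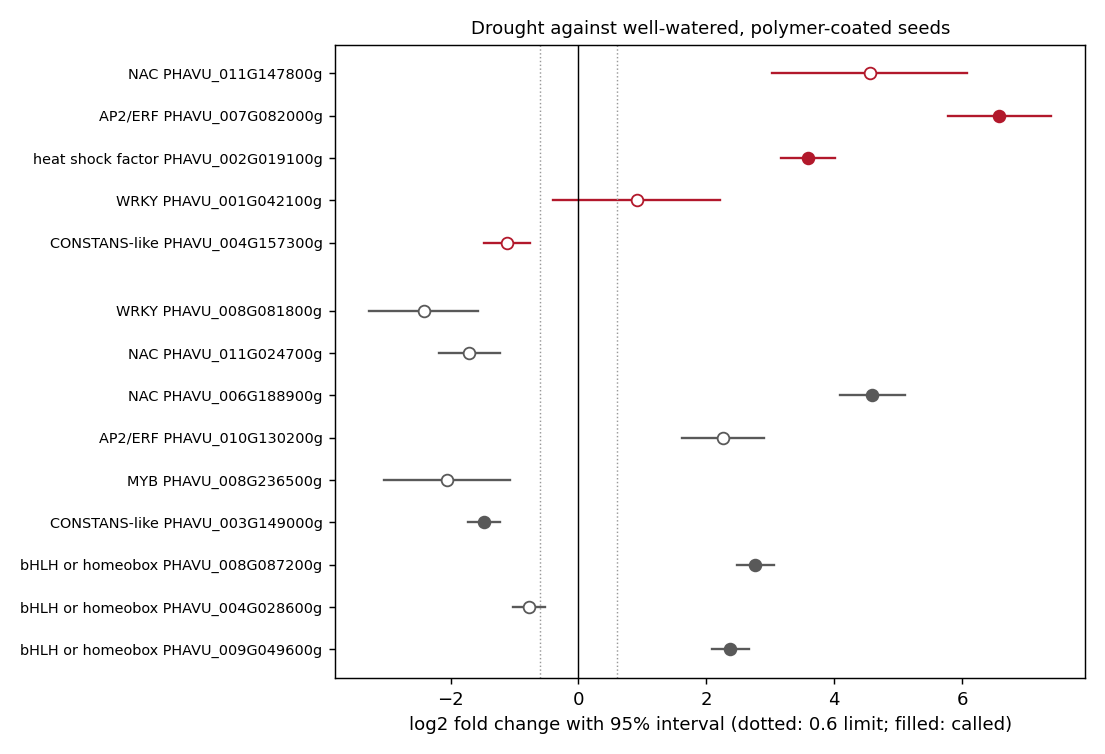
Log2 fold change of drought against well-watered polymer plants with its 95% interval, for the 5 genes (red) and 9 other transcription factor genes (grey). Filled points passed all 3 criteria and dotted lines mark 0.6 in either direction. The intervals of the NAC, AP2/ERF and heat shock factor genes lie above 3, that of the WRKY gene spans 0 and that of the CONSTANS-like gene lies below -0.6.

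The order of levels among the 5 genes differed between water regimes. In drought polymer plants the CONSTANS-like gene averaged 44.2 ± 9.84 TPM, the heat shock factor gene 38.8 ± 5.03 TPM, the AP2/ERF gene 20.3 ± 6.12 TPM, the NAC gene 14.9 ± 6.36 TPM and the WRKY gene 2.26 ± 1.27 TPM (SD, n = 3). In this order the first pair overlapped between libraries, as did the AP2/ERF and NAC genes. In well-watered polymer plants the CONSTANS-like gene averaged 92.2 ± 9.79 TPM, the heat shock factor gene 3.08 ± 0.837 TPM, the WRKY gene 1.35 ± 0.573 TPM, the NAC gene 0.666 ± 0.316 TPM and the AP2/ERF gene 0.214 ± 0.104 TPM. The CONSTANS-like gene and the heat shock factor gene stood clear of the others there, the WRKY gene overlapped with the NAC gene, and the lowest NAC library (0.338 TPM) was next to the highest AP2/ERF library (0.332 TPM).

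Within the drought polymer group several of the genes placed the replicates in the same or the opposite order. Replicate 1 was the highest of the 3 for the NAC, AP2/ERF and heat shock factor genes and the lowest for the CONSTANS-like gene. Replicate 3 was the lowest for the AP2/ERF and heat shock factor genes and, by a small margin, for the NAC gene. It was the highest for the WRKY and CONSTANS-like genes. Summed leaf markers were 1753 TPM in replicate 1, 2713 TPM in replicate 2 and 2926 TPM in replicate 3, and their part in this order was not tested.

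The comparison of 6PP with polymer in well-watered plants asked whether the seed coating alone altered the 5 genes in unstressed leaves, and it shares the well-watered polymer libraries with the drought comparison. None of the 5 was called, and none had an unadjusted p under 0.05 in edgeR's quasi-likelihood test. Over all 22398 genes 0.0% were called, with 1235 genes at an unadjusted p under 0.05 and a smallest FDR of 0.400, while DESeq2 and edgeR's likelihood ratio test each called 4 genes. With another tool, the study itself reports a limited set of genes that differed in this comparison. The cause of that difference in calls was not tested. The libraries of the groups overlapped for all 5 genes. They did not overlap for 10.5% of all tested genes, with 6PP above for 5.16% and below for 5.35%. The median log2 fold change was 0.30 over the 5 genes and 0.01 over all tested genes.

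The NAC gene showed the largest difference of the 5 here. It measured 1.70, 3.16 and 0.400 TPM in well-watered 6PP plants (72, 128 and 17 reads), against 0.970, 0.338 and 0.690 TPM in well-watered polymer plants (38, 18 and 29 reads). Replicates 1 and 2 of the 6PP plants lay above all polymer libraries and replicate 3 lay within their range. The log2 fold change was 1.54 ± 0.73 (SE), with a 95% interval of -0.15 to 3.23 (edgeR FDR = 0.877). Leaving out single libraries gave 0.84 to 2.01.

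The AP2/ERF gene was near the limit of detection in well-watered leaves of either coating. It measured 0.158, 0.0187 and 0.136 TPM in 6PP plants and 0.332, 0.136 and 0.172 TPM in polymer plants. In reads this was 9, 1 and 8 in 6PP plants against 18, 10 and 10 in polymer plants. With 6PP its log2 fold change was -0.86 ± 0.61 (SE), with a 95% interval of -2.20 to 0.47 (edgeR FDR = 0.913).

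The heat shock factor gene measured 3.67, 3.94 and 3.35 TPM in well-watered 6PP plants, against 2.13, 3.67 and 3.45 TPM in well-watered polymer plants. Only polymer replicate 1 stood apart, on the low side. The difference was a log2 fold change of 0.30 ± 0.19 (SE), with a 95% interval of -0.12 to 0.72 (edgeR FDR = 0.896).

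The CONSTANS-like gene measured 71.8, 102 and 82.6 TPM in well-watered 6PP plants and 83.0, 91.0 and 102 TPM in well-watered polymer plants. The groups covered nearly the same range. The log2 fold change was 0.01 ± 0.16 (SE), with a 95% interval of -0.34 to 0.37 (edgeR FDR = 0.996), the narrowest of the 5, and its sign turned with TPM or with exon reads alone. The WRKY gene measured 2.69, 0.568 and 1.52 TPM in well-watered 6PP plants and 0.890, 1.99 and 1.17 TPM in well-watered polymer plants. Its 6PP libraries lay on both sides of the polymer libraries, and the log2 fold change of 0.59 ± 0.60 (SE; edgeR FDR = 0.923) was -0.05 without 6PP replicate 1.

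**Figure D3:**
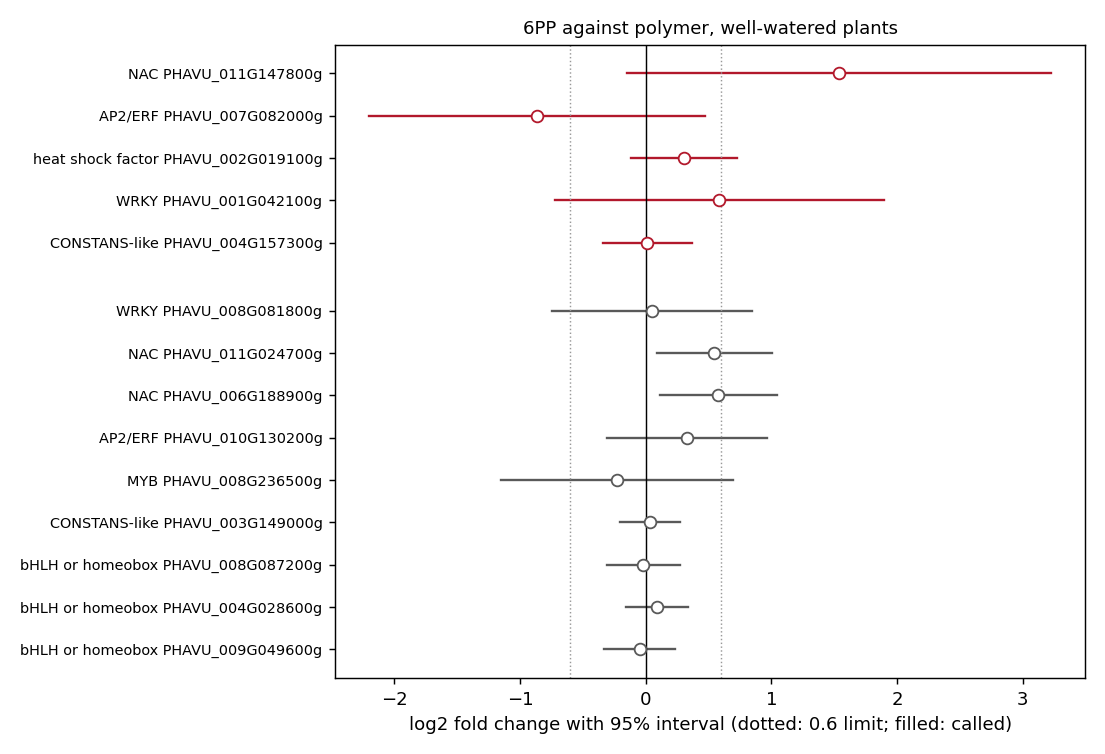
Log2 fold change of 6PP against polymer in well-watered plants with its 95% interval, for the 5 genes (red) and 9 other transcription factor genes (grey). No point is filled, since none passed the criteria, and the intervals of all 5 red points span 0.

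Under drought, 6PP could be set against polymer only as 1 library against 3, without a replicate check. The values in this paragraph and the next belong to the comparison on which the study chose the genes, which it made with 3 replicates per group. The drought polymer libraries are the same as in the comparison with well-watered plants. The NAC gene stood at 261 TPM (11183 reads) in the drought 6PP library, against 22.3, 11.3 and 11.2 TPM in the drought polymer libraries. It was the most abundant of the 5 genes in that library, where it exceeded 98.5% of all listed genes in TPM, and its log2 difference in CPM (read counts scaled to library size, prior count 2) from the polymer mean was 4.51. It ranked 42 from the highest of 22398 tested genes. The AP2/ERF gene stood at 63.9 TPM in the 6PP library, against 27.1, 18.2 and 15.5 TPM in the polymer libraries, which is a log2 difference of 2.02. The heat shock factor gene stood at 92.6 TPM in the 6PP library, against 44.3, 37.8 and 34.3 TPM in the polymer libraries, a log2 difference of 1.57. All 3 lay above every polymer library.

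The CONSTANS-like gene was on the other side. It stood at 9.20 TPM (537 reads) in the drought 6PP library, against 36.8, 40.5 and 55.4 TPM in the drought polymer libraries, and its log2 difference was -1.96. The WRKY gene stood at 1.21 TPM in the 6PP library (43 reads), against 1.48, 1.58 and 3.73 TPM in the polymer libraries (60, 51 and 138 reads). Its log2 difference of -0.52 became -0.06 when polymer replicate 3 was left out, and the 6PP library lay only just below the lowest polymer library. Of the 5 genes 3 were at least 0.6 higher and 1 at least 0.6 lower, where 18.7% of all tested genes were at least 0.6 higher and 27.2% at least 0.6 lower. The 6PP library lay above every polymer library for 35.5% of all tested genes and below every one for 44.0%.

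**Figure D4:**
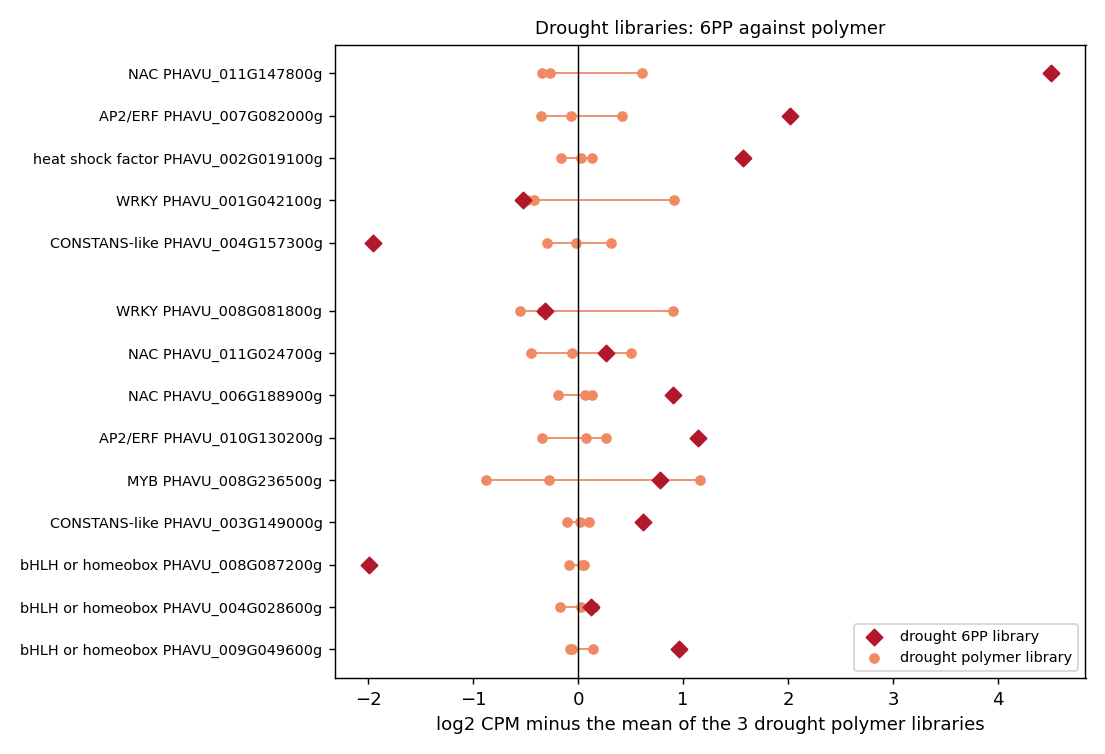
Log2 CPM of the drought 6PP library (red diamonds) and the 3 drought polymer libraries (orange points), each minus the mean of the polymer libraries, for the 5 genes (top) and 9 other transcription factor genes. The NAC diamond is at 4.51 and the CONSTANS-like diamond at -1.96, both outside their polymer libraries, and the WRKY diamond sits at the lowest polymer libraries.

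Against the well-watered 6PP libraries, which the choice of genes did not use directly but which are set against the same drought 6PP library, the pattern by gene was as follows. The NAC gene had 261 TPM in the drought 6PP library and 1.70, 3.16 and 0.400 TPM in well-watered 6PP libraries, a log2 CPM difference of 7.82. It was 7.03 without well-watered 6PP replicate 3 and 8.42 without replicate 2. The AP2/ERF gene had 63.9 TPM under drought with 6PP, against 0.158, 0.0187 and 0.136 TPM in well-watered 6PP libraries, a log2 CPM difference of 9.28, at rank 11 from the highest. This value depends on how low counts are treated, since the well-watered libraries held 18 reads of this gene in all: it was 9.75 with a prior count of 0.5 and 5.88 on log2(TPM + 1). Leaving out 1 well-watered 6PP library gave 8.67 (without replicate 2) to 9.64 (without replicate 1). The heat shock factor gene differed by 4.84 and the CONSTANS-like gene by -3.09 in log2 CPM.

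The WRKY gene was the exception among the 5. Its 1.21 TPM in the drought 6PP library lay within the range of the well-watered 6PP libraries, 0.568 to 2.69 TPM, and the log2 CPM difference was -0.09. Its sign was not stable, at 0.43 without well-watered 6PP replicate 1, -0.71 without replicate 2 and 0.03 without replicate 3. Over all tested genes the drought 6PP library was at least 0.6 higher for 24.4% and at least 0.6 lower for 35.1%, and it lay above every well-watered 6PP library for 39.6% and below every one for 44.8%. With 1 drought 6PP library no test of this difference was made, nor of the interaction of drought and coating. Set side by side, log2 differences of drought from well-watered plants were 7.82 with 6PP (1 library) and 4.56 with polymer for the NAC gene, 9.28 and 6.59 for the AP2/ERF gene, 4.84 and 3.59 for the heat shock factor gene, -0.09 and 0.91 for the WRKY gene and -3.09 and -1.11 for the CONSTANS-like gene. The gap within each pair contains the difference between 6PP and polymer under drought, on which the genes were chosen. It is therefore a description and no independent evidence of a changed drought response. The first of each pair is a difference of log2 CPM means and the second a fitted value. For the AP2/ERF gene they were 5.88 and 4.10 on log2(TPM + 1), and the WRKY value with 6PP had no stable sign.

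The summed leaf markers also differed between these libraries, at 821 TPM in the drought 6PP library against 1753, 2713 and 2926 TPM in the drought polymer libraries, although PHAVU_001G234300g among them was higher in the 6PP library. Their part in the values above was not tested. Intron reads of the NAC gene were 2.84% of its reads in the drought 6PP library and 3.14% to 3.71% in the drought polymer libraries. For the CONSTANS-like gene they were 21.4% in the drought 6PP library and 22.1% to 25.0% in the drought polymer libraries. All reads counted on the 5 genes were unique to 1 place in the genome.

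The study names 9 further transcription factor genes for drought-stressed plants, which it chose on these same samples, so their directions are not independent evidence. Of these, 4 were called between drought and well-watered polymer plants, 3 higher and 1 lower, against the background of 12.6%. All 9 passed the fold and FDR limits, 4 higher and 5 lower, where 15.7% of all tested genes passed higher and 20.5% lower. In all 9 the groups did not overlap, against 65.9% of all tested genes. Their median log2 fold change was -0.77. The study describes these 9 genes and the 5 genes above as induced under drought with 6PP, by its own test on 3 replicates per group. Here only 1 drought 6PP library could be used and no test was made, so its values cannot check that description. In this library PHAVU_004G157300g, PHAVU_001G042100g (only just) and PHAVU_008G087200g lay below every drought polymer library, where 44.0% of all tested genes did. The others lay above or within the drought polymer libraries.

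The NAC genes had log2 fold changes of either sign under drought, as did the WRKY genes (0.91, which did not pass, and -2.42), while both AP2/ERF genes were positive and both CONSTANS-like genes negative. Of the other NAC genes, PHAVU_006G188900g rose, with 183 ± 21.9 TPM in drought polymer plants and 7.66 ± 1.06 TPM in well-watered polymer plants (SD, n = 3 each), a log2 fold change of 4.59 ± 0.23 (SE). This is close to the 4.56 of PHAVU_011G147800g, with a narrower error. PHAVU_011G024700g averaged 11.3 ± 4.16 TPM under drought and 37.7 ± 3.94 TPM under watering, at a log2 fold change of -1.71 that met the FDR limit but not the Bonferroni limit, and it was called at -2.01 without drought polymer replicate 3.

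The second AP2/ERF gene, PHAVU_010G130200g, averaged 29.0 ± 6.29 TPM in drought polymer plants and 5.94 ± 2.02 TPM in well-watered polymer plants. At a log2 fold change of 2.26, it was past the fold and FDR limits but not called. The second WRKY gene, PHAVU_008G081800g, averaged 13.6 ± 8.49 TPM under drought and 73.0 ± 14.3 TPM under watering, at -2.42. It was not called with all libraries and was called at -3.03 without drought polymer replicate 3, the replicate in which PHAVU_001G042100g was also highest. The second CONSTANS-like gene, PHAVU_003G149000g, fell by 1.48 on the log2 scale and was called, with 65.3 ± 4.20 TPM in drought polymer plants against 179 ± 7.49 TPM in well-watered polymer plants.

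The remaining 4 genes were of other families. The bHLH or homeobox genes PHAVU_008G087200g and PHAVU_009G049600g rose, with log2 fold changes of 2.77 and 2.38. PHAVU_004G028600g, of the same group, had a log2 fold change of -0.77 and the MYB gene PHAVU_008G236500g one of -2.06, both uncalled.

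In the drought 6PP library the other NAC, AP2/ERF, WRKY and CONSTANS-like genes stood nearer to the polymer mean than PHAVU_011G147800g and PHAVU_004G157300g did. PHAVU_006G188900g had 276 TPM in the drought 6PP library and a mean of 183 TPM in the drought polymer libraries, a log2 CPM difference of 0.90. PHAVU_011G024700g, at 0.27, and PHAVU_008G081800g, at -0.31, lay within the polymer libraries. The second CONSTANS-like gene PHAVU_003G149000g differed by 0.61 and lay above them, opposite in sign to PHAVU_004G157300g at -1.96. The AP2/ERF gene PHAVU_010G130200g, at 1.14, and PHAVU_009G049600g, at 0.96, also lay above. In all, 4 of the 9 lay above every polymer library, where 35.5% of all tested genes did, and 1 lay below, PHAVU_008G087200g at -1.99, where 44.0% did.

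With 6PP in well-watered plants none of the 9 was called. The NAC genes PHAVU_011G024700g (log2 fold change 0.55, edgeR FDR = 0.875) and PHAVU_006G188900g (0.58, edgeR FDR = 0.854) had unadjusted p under 0.05, and in PHAVU_011G024700g the groups did not overlap. Of all 22398 tested genes, 1235 had an unadjusted p under 0.05 in edgeR's quasi-likelihood test, and in 10.5% the groups did not overlap.

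Each of the 5 genes was also compared with all other tested genes by the correlation of log2 CPM over the 10 libraries, which share group structure and depth, so these values are descriptions. The genes most like the heat shock factor gene were PHAVU_006G001200g, PHAVU_002G117200g and PHAVU_011G117900g, each with Pearson r of 0.998 over 10 libraries. PHAVU_011G117900g had 221 TPM in the drought 6PP library, 114 TPM in drought polymer plants, 11.9 TPM in well-watered 6PP plants and 11.7 TPM in well-watered polymer plants. Those most like the AP2/ERF gene were PHAVU_002G306900g (r = 0.993), PvCIPK2, a CBL-interacting protein kinase gene (PHAVU_003G156900g, r = 0.991), and PHAVU_001G124800g (r = 0.990). Their log2 CPM differences of the drought 6PP library from the polymer mean were 0.16, 0.32 and 0.82, against 2.02 for the AP2/ERF gene.

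For the NAC gene the closest were PHAVU_002G307900g (r = 0.988), PHAVU_001G263300g (r = 0.987) and PHAVU_009G174600g (r = 0.980). Their log2 CPM differences of the drought 6PP library from the polymer mean were 1.81, 0.77 and 1.10, all smaller than the 4.51 of the NAC gene. For the CONSTANS-like gene the closest were PHAVU_007G051200g (r = 0.996), PHAVU_002G175300g (r = 0.993) and PHAVU_004G122400g (r = 0.993). PHAVU_002G175300g had 2.03 TPM in the drought 6PP library, 21.7 TPM in drought polymer plants, 102 TPM in well-watered 6PP plants and 93.0 TPM in well-watered polymer plants. For the WRKY gene no gene was above r = 0.955 (PHAVU_001G005200g). All these genes were picked as the highest r among all tested genes over only 10 libraries. No background share of such values was worked out, and shared regulation was not tested.

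Among the 5 genes themselves, r over the 10 libraries was 0.960 for the AP2/ERF and heat shock factor genes, 0.923 for the NAC and heat shock factor genes and 0.868 for the NAC and AP2/ERF genes. The CONSTANS-like gene had r of -0.926 with the NAC gene, -0.905 with the heat shock factor gene and -0.896 with the AP2/ERF gene. The WRKY gene had r between -0.168 and 0.313 with the rest of the 5. The drought libraries of both coatings enter these values, and the genes were chosen on the difference between those coatings. The values are therefore descriptions. Without the drought 6PP library, over 9 libraries, r was 0.945, 0.892 and 0.832 for the pairs named first, in the order above. For the CONSTANS-like gene it was -0.833 with the NAC gene, -0.921 with the heat shock factor gene and -0.966 with the AP2/ERF gene. For the WRKY gene it ran from -0.367 to 0.412.

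The nearest genes on the chromosome were read as well. Both neighbours of the NAC gene, PHAVU_011G147700g and PHAVU_011G147900g, were listed at 0 TPM in all 10 libraries, at 134257 and 41604 bases from it. The heat shock factor gene lies 1344 bases from PHAVU_002G019200g (log2 fold change of drought against well-watered -0.05, edgeR FDR = 0.801) and 6113 bases from PHAVU_002G019000g, which rose by 1.06 on the log2 scale. The gene 601 bases from the WRKY gene, PHAVU_001G042000g, had a log2 fold change of -1.01 (edgeR FDR = 0.00682), and PHAVU_001G042200g on its other side one of 0.79 (edgeR FDR = 0.120). The neighbours of the CONSTANS-like gene, PHAVU_004G157200g and PHAVU_004G157400g, had log2 fold changes of 0.33 and -0.32. Of the AP2/ERF gene's neighbours, PHAVU_007G081900g had one of -0.25 and PHAVU_007G082100g was listed at 0 TPM. Of the 10 neighbours 7 were tested and 1, PHAVU_002G019000g, was called, where 12.6% of all tested genes were.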

How the data were processed

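The authors aligned the reads in CLC Genomics Workbench, with the BAT93 genome named in the methods, and deposited per gene raw read counts (total, unique, exon and intron reads) and TPM values. No assembly is named in the deposited tables, whose coordinates are given unchanged. Of the drought 6PP files, that of replicate 1 held 12 tables on other gene identifiers, and that of replicate 2 held 2 tables, one equal to replicate 3. The equal pair was counted once. The remaining 13 tables entered no comparison, which left 10 libraries where 12 had been planned.

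The main test used total gene reads and edgeR 4.0.16 in R 4.3.3 (TMM, filterByExpr, robust quasi-likelihood test), in one fit of 4 group means. Each SE was derived by dividing the size of the log2 fold change by the root of F, and adjusted p-values (FDR by Benjamini-Hochberg, and Bonferroni) are over 22398 genes. The single drought 6PP library was described by log2 CPM with a prior count of 2. The scripts were tested on simulated data. Alternatives were RLE factors, DESeq2 1.42.0, other filters, unique and exon reads, other thresholds, a replicate block, only the groups compared, each library left out and TPM with a pseudocount of 1 or 0.1 on the log2 scale (limma 3.58.1). edgeR's likelihood ratio test was added after the data were examined. Figures were drawn with matplotlib 3.10.9.

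Named genes are the 5 genes, the 9 other transcription factor genes the study names, the 3 genes most correlated with each of the 5, the nearest gene on either side, and genes whose symbol starts with NAC, ERF, DREB, HSF, WRKY, COL or CO. The genes and lists were chosen with earlier results of these data known. Of the 27996 identifiers 0 were found in the reference table, so families were not completed from it, and no sequence is shown.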

Additional observations from a re-analysis of the deposited data

Results flagged for a closer look

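The file of drought 6PP replicate 2 also holds a table without a sample label, with 1033823623 gene reads, which is 18.6 times the deepest library. It enters no comparison above. In it the NAC gene PHAVU_011G147800g stood at 96.6 TPM, against 22.3 TPM in the highest of the 3 drought polymer libraries. The AP2/ERF gene PHAVU_007G082000g stood at 27.2 TPM, against 27.1 TPM, and the WRKY gene PHAVU_001G042100g at 5.54 TPM, against 3.73 TPM. No share over all genes was worked out for this table, so these values have no background to be read against. The margin of the AP2/ERF gene is within the spread of the polymer libraries. The heat shock factor gene, at 41.3 TPM, and the CONSTANS-like gene, at 49.0 TPM, lay below the highest drought polymer library. Which plants this table comes from was not tested.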

How the results depend on the processing

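For drought against well-watered polymer plants, 2828 genes and 2 of the 5 were called. DESeq2 called 6225 genes and 4 of the 5, edgeR's likelihood ratio test 6252 and 4, an FDR of at most 0.05 alone 12581 and 4, and fold with FDR but no Bonferroni limit 8102 and 4. On log2(TPM + 0.1), limma called 1883 genes. With at least 10 reads in every library 1 of the 5 was called, since the AP2/ERF gene was not tested. Leaving out 1 library gave 1719 to 2181 genes (1719 without drought polymer replicate 2, 1882 without replicate 1) and 2 of the 5 each time. The replicate block gave 2268 genes and 2 of the 5. Deviations of samples of the same number had correlations of 0.037, -0.092 and 0.029 in this comparison and 0.089, 0.156 and -0.020 between coatings. For samples of different numbers they were -0.103 to 0.138 and -0.146 to 0.031. Between coatings, 0.089 and 0.156 lay above every value for different numbers. With groups of 3 libraries these values cannot decide whether the numbers pair the samples. For 6PP against polymer in well-watered plants 0 genes were called, against 4 by DESeq2 and 4 by the likelihood ratio test. The cause of these differences was not tested.

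Signs turned for small differences between coatings in well-watered plants and for the WRKY gene between the drought 6PP library and well-watered 6PP libraries (-0.71 to 0.43 with 1 library left out, 0.07 with exon reads, against -0.09). Between coatings, PHAVU_004G157300g was -0.044 with exon reads and -0.12 on both TPM scales, and PHAVU_009G049600g was 0.0013 with exon reads. On log2(TPM + 1) and log2(TPM + 0.1), PHAVU_008G081800g was -0.040 and -0.041, and PHAVU_003G149000g was -0.0385 and -0.0387. Leaving out 1 library gave -0.047 to 1.00 for PHAVU_001G042100g, -0.13 to 0.11 for PHAVU_004G157300g, -0.14 to 0.21 for PHAVU_008G081800g, -0.040 to 0.13 for PHAVU_003G149000g, -0.067 to 0.042 for PHAVU_008G087200g and -0.14 to 0.066 for PHAVU_009G049600g. In drought against well-watered polymer plants no sign turned for any of the 14 genes under these alternatives. The main limits are the single drought 6PP library, groups of 3 pools and, for the AP2/ERF and WRKY genes, low counts.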

Other observations

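Genes named by their own symbol in the files add 4 DREB genes of the AP2/ERF family, whose proteins are known from dehydration and cold responses. DREB6B (PHAVU_002G254500g) fell by 1.58 on the log2 scale between drought and well-watered polymer plants (edgeR Bonferroni-adjusted p = 0.0176), with 2.75 ± 0.124 TPM under drought and 8.10 ± 1.13 TPM under watering (SD, n = 3 each). DREB5A (PHAVU_008G098900g) averaged 110.2 ± 16.8 TPM in drought polymer plants and 18.5 ± 6.06 TPM in well-watered polymer plants, at a log2 fold change of 2.31 that was not called (edgeR FDR = 3.64e-05, Bonferroni-adjusted p = 0.121). DREB2A (PHAVU_011G107800g) averaged 8.09 ± 0.136 TPM under drought and 7.35 ± 2.48 TPM under watering, at 0.11 (edgeR FDR = 0.697). DREB1F (PHAVU_003G212800g) did not pass the filter on low counts. The letters of the rule also took COQ3, COQ5 and COQ6, which are genes of coenzyme Q synthesis and not of these families, and none of them was called.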
